A study of Mus musculus with 2 samples.

Results

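The vascular endothelial growth factor (VEGF) genes described here are 5 ligands, Vegfa, Vegfb, Vegfc, Figf and Pgf, and 5 receptors, Kdr, Flt1, Flt4, Nrp1 and Nrp2. They were chosen by gene symbol, and all 10 were present among the 27998 genes of both tables. They were measured by droplet single-cell RNA sequencing in non-myocytes of the heart ventricles of 2 wild type C57BL/6 mice, 10 to 12 weeks old, with 1 library per animal. Both mice belong to a single untreated group, so every comparison is between cell classes of the same hearts. The atria were removed, the myocytes were spun out at low speed and live cells were sorted, which limits the data to the cells that survived digestion and sorting. Cardiomyocytes, a known source of VEGF ligands in the heart, were therefore not sampled as a class.

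VEGF ligands are secreted dimers that bind receptor tyrosine kinases on the surface of endothelial cells. VEGF-A acts mainly through Kdr (VEGF receptor 2), the main driver of endothelial growth and permeability, and is also bound by Flt1 (VEGF receptor 1), a high-affinity receptor with weak kinase activity that also occurs as a soluble decoy. VEGF-B (Vegfb) and placental growth factor (Pgf) bind Flt1, while VEGF-C (Vegfc) and VEGF-D (named Figf in these tables) bind Flt4 (VEGF receptor 3), the receptor of lymphatic growth. The neuropilins Nrp1 and Nrp2 have no kinase, bind VEGFs as co-receptors and also bind secreted semaphorins.

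The genes lie on 8 chromosomes in the RefSeq annotation of mouse build GRCm38.p6, which is mm10. Kdr (chromosome 5, 75932827 to 75979072) and Flt1 (chromosome 5, 147561604 to 147726438) are both on the minus strand, and Flt4 is at 49609679 to 49652739 of chromosome 11, plus strand. Nrp1 (128358591 to 128505476) and Vegfc (54077532 to 54186454) are both on the plus strand of chromosome 8, and Nrp2 is on the plus strand of chromosome 1 (62703317 to 62818692). Vegfa (chromosome 17, 46016993 to 46032377), Vegfb (chromosome 19, 6982472 to 6987651) and Pgf (chromosome 12, 85166637 to 85177785) are on the minus strand. Figf, whose RefSeq symbol is Vegfd and which was matched by its synonym, is on the plus strand of the X chromosome (164373522 to 164402650).

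The bases just upstream of 4 of the genes are shown because they represent the pattern described below, a pair of receptors highest in endothelium (Kdr and Flt1) and a pair of ligands with most of their UMIs in fibroblasts (Vegfa and Figf). Each is the part of the 250 bases before the start in the RefSeq promoter table that overlaps no exon annotated in GENCODE vM21. For Kdr and Flt1 that start lies inside the gene span given above, not at its outer end. They read 5′ to 3′ on the gene's strand, and capitals mark GGAA or its reverse complement TTCC, the core bound by ETS factors, counted on both strands (the 2 forms cannot overlap). ETS factors include the endothelial regulators Erg and Fli1.
Kdr, chr5:75978459-75978705, minus strand: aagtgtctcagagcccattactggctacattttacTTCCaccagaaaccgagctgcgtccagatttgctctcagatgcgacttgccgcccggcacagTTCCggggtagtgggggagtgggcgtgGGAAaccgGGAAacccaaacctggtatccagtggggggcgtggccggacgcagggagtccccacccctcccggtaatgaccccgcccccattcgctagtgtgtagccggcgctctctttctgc
Flt1, chr5:147726012-147726261, minus strand: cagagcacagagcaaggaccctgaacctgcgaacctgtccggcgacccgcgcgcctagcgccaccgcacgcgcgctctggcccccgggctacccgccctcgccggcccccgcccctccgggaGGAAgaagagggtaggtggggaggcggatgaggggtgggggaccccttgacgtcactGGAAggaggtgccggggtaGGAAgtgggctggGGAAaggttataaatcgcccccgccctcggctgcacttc
Vegfa, chr17:46032378-46032627, minus strand: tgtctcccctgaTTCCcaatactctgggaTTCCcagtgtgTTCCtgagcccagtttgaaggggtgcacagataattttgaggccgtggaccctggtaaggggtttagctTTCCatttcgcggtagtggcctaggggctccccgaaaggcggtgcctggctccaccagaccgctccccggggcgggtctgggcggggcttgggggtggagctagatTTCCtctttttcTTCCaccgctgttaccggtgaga
Figf, chrX:164373272-164373377, plus strand: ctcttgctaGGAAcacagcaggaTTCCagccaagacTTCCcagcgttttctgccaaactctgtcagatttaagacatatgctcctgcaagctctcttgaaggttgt
The windows of Kdr and Flt1 held 4 cores each, the Vegfa window held 6 and the shorter Figf window held 3. The core was also common elsewhere, since 93.4% of 32851 upstream windows of 250 bases held at least 1, with a median of 3, and 33.4% held 4 or more. At least 6 cores, as in Vegfa, were found in 8.69% of these windows, and 12.0% of windows of the same 106 bases held at least 3, as in Figf. For the 247 bases of the Kdr window, 32.5% of windows held 4 or more. Among the windows not shown, those of Vegfb, Vegfc and Nrp2 held 1 core each and that of Nrp1 held 4. The windows of Pgf and Flt4 had 0 bases outside annotated exons, so their cores were not counted. A match to these letters is a description and not a bound site, and over the genes counted the cores did not separate the receptors from the ligands.

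The tables held 7732 barcodes with 21355383 unique molecular identifiers (UMIs, each a tag on 1 captured RNA molecule) for mouse 1 and 6367 barcodes with 15174548 UMIs for mouse 2, and 65 barcodes occurred in both libraries. After filtering, 6608 and 5687 cells were kept, with medians of 2542.5 and 2194 UMIs per cell. Classes were set by summed UMIs of gate genes, which were not tested. Endothelium needed at least 2 UMIs of Pecam1, Cdh5 and Egfl7, fibroblasts at least 5 of Dcn, mural cells (pericytes and smooth muscle) at least 4 of Rgs5, Kcnj8 and Vtn, and macrophages at least 15 of C1qa, C1qb and C1qc. This gave 929 and 1269 endothelial cells, 1860 and 1303 fibroblasts, 63 and 42 mural cells, and 2997 and 2361 macrophages in mouse 1 and mouse 2. Cells that passed more than 1 of these gates (188 and 130) were left out. All 5 check markers of endothelium, of fibroblasts and of macrophages and all 8 of mural cells, none of which was a gate gene, were detected in their own class in each mouse. Detection alone does not set the classes apart, since all 5 endothelial markers were also detected in fibroblasts, mural cells and macrophages. The mural class stood apart, because the 5 endothelial check markers (Tie1, Emcn, Cldn5, Esam and Icam2) summed to 986 and 1039 CPM (UMIs of a gene or list per 1000000 UMIs of the class) there, against 2670 and 3181 CPM in endothelium. They summed to at most 30.7 CPM in fibroblasts and macrophages. Fibroblast check markers summed to 3514 and 4126 CPM in fibroblasts and 344 and 287 CPM in mural cells, where single markers reached up to 53.4% and 18.7% of their fibroblast level. In endothelium they summed to 57.4 and 52.5 CPM and in macrophages to 33.2 and 31.3 CPM. Mural check markers summed to 5609 and 5194 CPM in mural cells and 88.6 and 135 CPM in fibroblasts. The part of fibroblast RNA in the mural values was not tested. The 15 cardiomyocyte markers were present in every class, at 514 to 1157 CPM in the 4 classes of mouse 1 and 215 to 418 CPM in those of mouse 2.

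Kdr, Flt1, Nrp1 and Nrp2 were highest in endothelium among the 4 classes, and Pgf and Figf in fibroblasts. A call required a log2 fold change of 1 or more in size and a p under 0.05 after Benjamini-Hochberg adjustment across every gene in the fit, from edgeR's quasi-likelihood test on the UMIs summed by class and mouse. Between endothelium and fibroblasts all 10 genes were called, 6 higher and 4 lower in endothelium, where 30.7% of all genes tested were called. All 10 passed the filter on low counts, Figf only through its fibroblast sums, so counts of calls that involve fibroblasts, which include Figf, are descriptions. Between endothelium and macrophages 9 of 10 were called, 8 higher and 1 lower, against 33.2% of all genes. Between fibroblasts and macrophages 5 of 10 were called, 4 higher and 1 lower, against 37.7% of all genes. The 6 comparisons among the 4 classes draw on the same class sums and are not independent of each other.

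**Figure D1:**
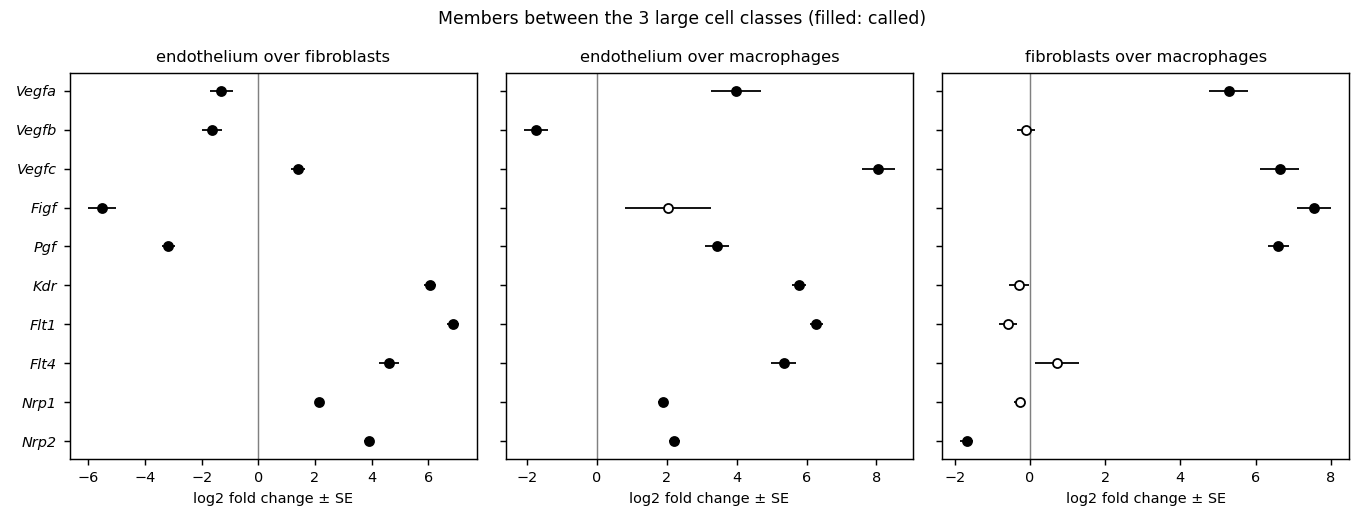
Log2 fold changes (x axis, points, with bars of 1 SE) of the 10 VEGF genes (rows) between endothelium and fibroblasts, endothelium and macrophages, and fibroblasts and macrophages; filled points were called. The 5 receptor genes lie right of 0 in both endothelial panels, while Vegfa, Vegfc, Figf and Pgf lie right of 0 in the fibroblast over macrophage panel.

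Kdr was measured at 464 CPM in endothelium of mouse 1 and 517 CPM in that of mouse 2, against 6.44 and 7.57 CPM in fibroblasts and 7.36 and 5.62 CPM in macrophages. The groups did not overlap, and both mice gave nearly the same levels. Endothelium exceeded fibroblasts by 6.07 ± 0.22 (log2 fold change ± SE, adjusted p = 1.6e-19) and macrophages by 5.78 ± 0.20 (adjusted p = 8.0e-20). Each cell was then thinned to 1000 UMIs, which left out 51 and 186 shallower endothelial cells, 13 and 40 fibroblasts, and 9 and 48 macrophages. At that depth 33.6% and 35.5% of endothelial cells held a Kdr UMI, against 0.596% and 0.475% of fibroblasts and 0.736% and 0.562% of macrophages. Unthinned, the share in endothelium was 48.1% ± 1.96 (SD, n = 2 mice), at median depths of 1463 and 1410 UMIs, while macrophages had medians of 2845 and 2616 UMIs and a share of 1.77% ± 0.284. Fibroblasts held 1.39% and 1.47% of the endothelial Kdr level, where single endothelial check markers reached at most 1.01% and 1.46%. Macrophages held 1.59% and 1.09% of it, where the markers reached at most 1.24% and 1.52%. Kdr was thus above the highest marker in both classes of mouse 1. In mouse 2 it was just above it in fibroblasts and within the range in macrophages. These low Kdr levels were not read as expression, and the source of these UMIs was not tested.

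Flt1 had 1022 and 739 CPM in endothelium, against 8.90 and 5.45 CPM in fibroblasts and 10.8 and 6.08 CPM in macrophages. Its endothelial level was higher in mouse 1 than in mouse 2, with 95% Poisson intervals of 973 to 1073 and 702 to 777 CPM that do not overlap, but each mouse stood far above the other classes. Endothelium exceeded fibroblasts by 6.86 ± 0.20 (adjusted p = 4.7e-21) and macrophages by 6.28 ± 0.19 (adjusted p = 3.8e-21) on the log2 scale. Flt1 is known from monocytes and macrophages as well as from vessels, but here macrophages held 1.06% and 0.823% of the endothelial level, within the range of the endothelial check markers in each mouse. Flt1 and Kdr UMIs were found together in 20.6% and 18.7% of the 878 and 1083 thinned endothelial cells, where the product of their separate shares was 20.2% and 18.1%. At least 1 of the 2 receptors was seen in 73.1% and 67.9% of these cells.

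Flt4 was lower, at 42.9 and 44.1 CPM in endothelium, against 1.33 and 2.12 CPM in fibroblasts (7 UMIs in each mouse) and 0.649 and 0.912 CPM in macrophages (6 UMIs in each). It was higher in endothelium than in fibroblasts by 4.62 ± 0.35 (adjusted p = 6.0e-12) and than in macrophages by 5.35 ± 0.36 (adjusted p = 1.8e-13). Of its 68 and 89 endothelial UMIs, 11 and 27 were in the lymphatic cells described below, where its CPM was higher. Fibroblasts held 3.09% and 4.81% of the endothelial Flt4 level and macrophages 1.51% and 2.07%, above the highest endothelial check marker in each mouse. These shares rest on few UMIs and were likewise not read as expression, and the source of the UMIs was not tested.

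The neuropilins were found in all classes, with different spans. Nrp1 had 1005 and 1099.8 CPM in endothelium, 632 and 519 CPM in mural cells, 259 and 194 CPM in fibroblasts, and 197 and 229 CPM in macrophages. Endothelium was highest in each mouse, and the fibroblast and macrophage values overlapped. Endothelium exceeded fibroblasts by 2.16 ± 0.15 (adjusted p = 1.2e-12) and macrophages by 1.89 ± 0.15 (adjusted p = 1.0e-11), and the difference of fibroblasts over macrophages was -0.27 ± 0.15 (adjusted p = 0.12). Thinned, 57.2% and 60.0% of endothelial cells, 22.5% and 17.8% of fibroblasts and 16.3% and 19.6% of macrophages held an Nrp1 UMI, far above the Kdr and Flt1 shares of these 2 classes.

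Nrp2 had 313 and 311 CPM in endothelium, against 111 and 89.5 CPM in mural cells, 19.5 and 20.6 CPM in fibroblasts, and 49.8 and 50.3 CPM in macrophages. No pair of these classes overlapped, and the mice were close to each other in each class but the mural one. Endothelium exceeded fibroblasts by 3.90 ± 0.17 (adjusted p = 1.0e-17) and macrophages by 2.22 ± 0.15 (adjusted p = 1.2e-13). Fibroblasts were below macrophages by -1.68 ± 0.17 (adjusted p = 6.3e-10), so Nrp2, unlike Nrp1, was called between these 2 classes; the difference between the 2 genes in that contrast was not tested. Fibroblasts held 6.23% and 6.63% of the endothelial Nrp2 level and macrophages 15.9% and 16.2%, both above the range of the endothelial check markers.

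**Figure D2:**
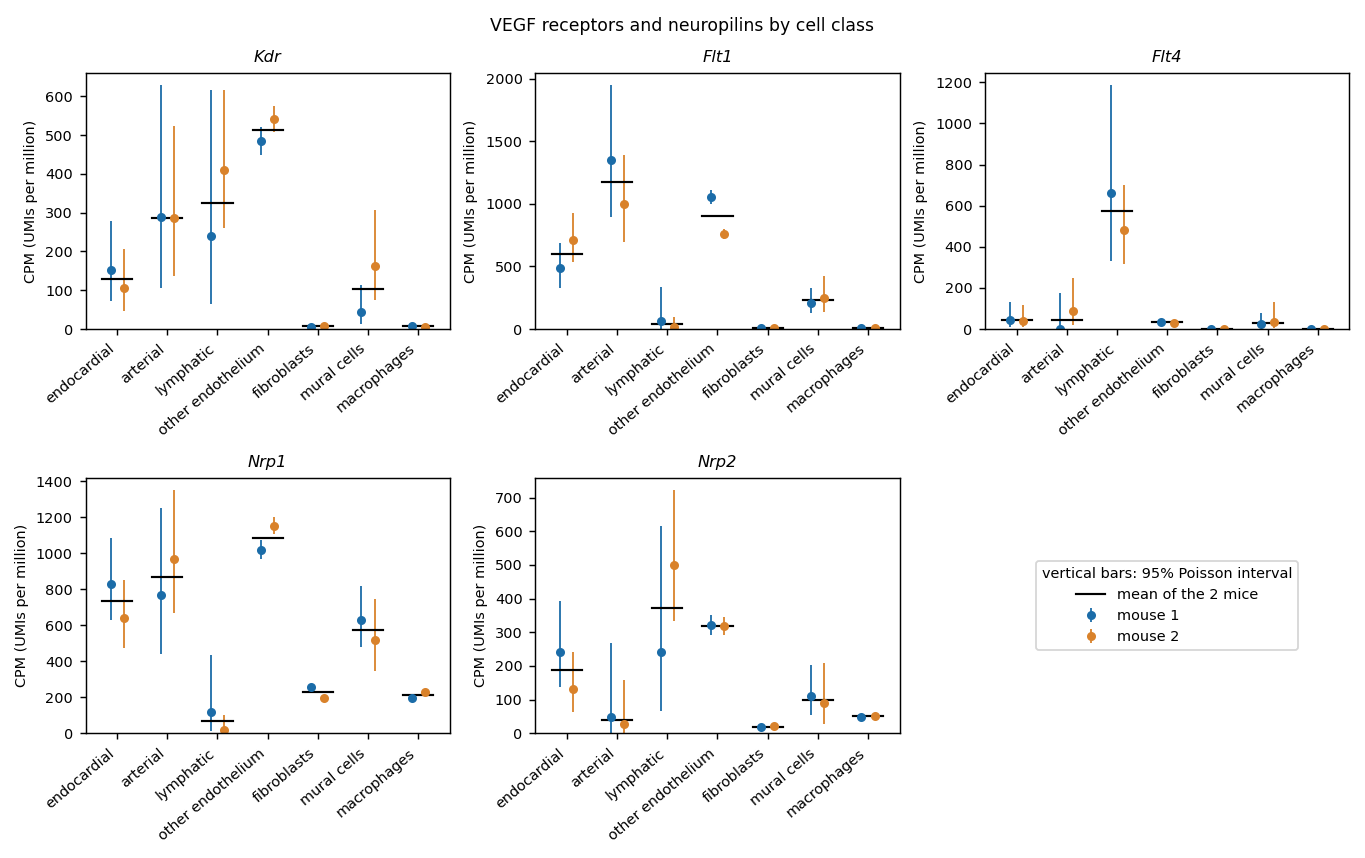
Levels of Kdr, Flt1, Flt4, Nrp1 and Nrp2 (y axis, CPM of summed UMIs, linear, each panel on its own scale) in 4 endothelial subsets, fibroblasts, mural cells and macrophages (x axis); points are mice with 95% Poisson intervals and black lines are means of the 2 mice. Kdr and Flt1 are near 0 in fibroblasts and macrophages, Flt4 peaks in lymphatic cells at 662 and 483 CPM, and Nrp1 is lowest in lymphatic cells.

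Pgf was the ligand with the most UMIs, most of them in fibroblasts. Endothelium had 17.0 and 39.1 CPM, mural cells 3 UMIs in mouse 1 and 0 in mouse 2, fibroblasts 252 and 247 CPM, and macrophages 2.38 and 1.37 CPM. The 2 mice agreed within counting error in fibroblasts (95% Poisson intervals of 238 to 266 and 231 to 265 CPM), and no other class reached the same range. Endothelium was lower than fibroblasts by -3.18 ± 0.23 (adjusted p = 1.2e-12), and fibroblasts exceeded macrophages by 6.61 ± 0.27 (adjusted p = 2.0e-18). A Pgf UMI was seen in 18.9% and 20.8% of thinned fibroblasts, against 0.167% and 0.0432% of thinned macrophages. Fibroblasts contributed 91.7% (95% exact binomial interval 90.2 to 93.1) and 88.0% (85.8 to 90.05) of all 1450 and 927 Pgf UMIs of kept cells, although they held 29.3% and 24.5% of all UMIs. In endothelium Pgf stood at 6.76% and 15.8% of its fibroblast level, above the 5 fibroblast check markers, which reached at most 2.65% and 1.95% there. Intervals throughout cover counting error only.

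Figf was found almost solely in fibroblasts. It had 0.631 and 0.991 CPM in endothelium (1 and 2 UMIs), 35.2 and 41.8 CPM in fibroblasts, and 0.217 and 0 CPM in macrophages (2 and 0 UMIs). Fibroblasts contributed 95.9% and 95.8% of its 194 and 144 UMIs. Endothelium was lower than fibroblasts by -5.52 ± 0.49 (adjusted p = 1.9e-10), and fibroblasts exceeded macrophages by 7.55 ± 0.45 (adjusted p = 2.0e-14). In counts over both mice Figf was 45.3-fold lower in endothelium than in fibroblasts (95% interval 15.4 to 221), and the ratio of fibroblasts to macrophages was 299 (82.0 to 2476). Endothelium and macrophages, with 3 and 2 UMIs, were not told apart (adjusted p = 0.18). Figf passed the filter on low counts (3.76 CPM in 2 sums) only through the fibroblast sums, so a difference from the other classes was built into its being tested, and its calls are descriptions. No Figf UMI was seen in mural cells, which with 3 counts set over both mice places them at least 1.84-fold lower than fibroblasts.

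Vegfa was sparse, with 92 and 73 UMIs in all kept cells. It had 3.78 and 7.93 CPM in endothelium (6 and 16 UMIs), 14.4 and 13.9 CPM in fibroblasts, and 0.325 and 0.152 CPM in macrophages (3 and 1 UMIs). Fibroblasts were highest of the 3 large classes in both mice and contributed 82.6% and 63.0% of its UMIs. Endothelium was lower than fibroblasts by -1.30 ± 0.41 (adjusted p = 9.7e-03), a call that was lost with DESeq2 (adjusted p = 0.078) and with doubled gate thresholds, where the difference was -0.78 (adjusted p = 0.15). Fibroblasts exceeded macrophages by 5.29 ± 0.52 (adjusted p = 5.5e-10) and endothelium exceeded macrophages by 3.98 ± 0.71 (adjusted p = 2.5e-05).

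Vegfb showed the flattest profile, with 8.20 and 4.46 CPM in endothelium, 19.3 and 17.3 CPM in fibroblasts, and 13.6 and 17.5 CPM in macrophages. It was the only one of the 10 genes called lower in endothelium than in macrophages, by -1.74 ± 0.34 (adjusted p = 7.6e-05), and it was also lower there than in fibroblasts, by -1.64 ± 0.35 (adjusted p = 2.8e-04). Fibroblasts and macrophages overlapped between mice and differed by -0.10 ± 0.23 (adjusted p = 0.72). Macrophages, the largest class, contributed 48.1% and 59.3% of its 262 and 194 UMIs.

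Vegfc was the one ligand called higher in endothelium than in fibroblasts, by 1.41 ± 0.25 (adjusted p = 2.5e-05). Endothelium had 32.8 CPM in mouse 1 and 86.7 CPM in mouse 2, against 18.2 and 22.1 CPM in fibroblasts, and macrophages had 0 and 2 UMIs. The endothelial level of mouse 2 was thus higher than that of mouse 1 beyond the counting intervals (24.4 to 43.0 and 74.3 to 100.5 CPM). The log2 ratio of endothelium to fibroblasts was 0.85 in mouse 1 alone and 1.97 in mouse 2 alone, and fibroblasts held 58.2% of all Vegfc UMIs of mouse 1 but 25.4% of those of mouse 2. Fibroblasts exceeded macrophages by 6.64 ± 0.52 (adjusted p = 5.0e-12) and endothelium exceeded macrophages by 8.05 ± 0.47 (adjusted p = 8.4e-15) in the fit. Against the 2 macrophage UMIs, the count ratio over both mice was 156 for fibroblasts (95% interval 42.5 to 1297) and 498 for endothelium (136 to 4139).

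**Figure D3:**
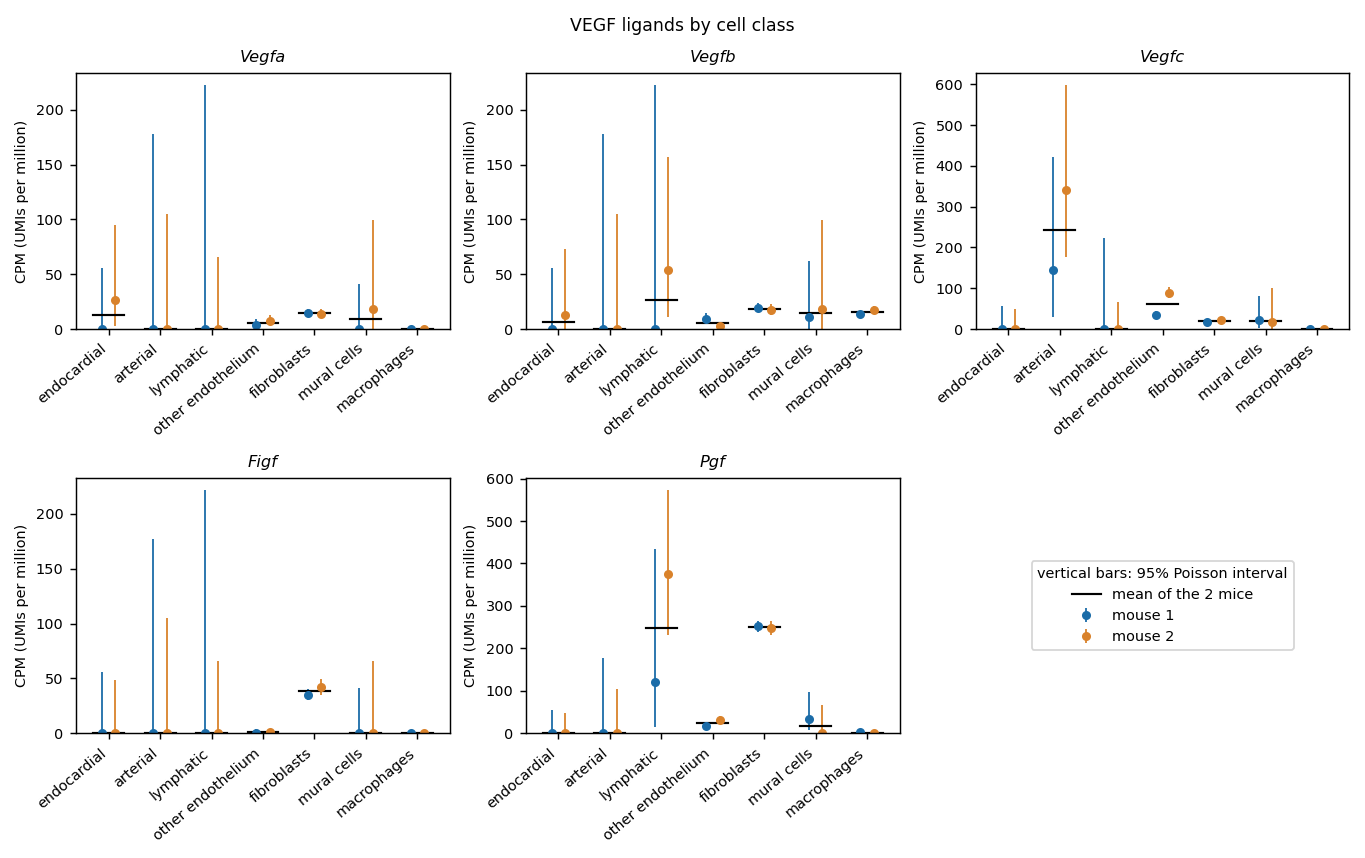
Levels of Vegfa, Vegfb, Vegfc, Figf and Pgf (y axis, CPM of summed UMIs, linear, each panel on its own scale) in 4 endothelial subsets, fibroblasts, mural cells and macrophages (x axis); points are mice with 95% Poisson intervals and black lines are means of the 2 mice. Figf is near 0 outside fibroblasts, Pgf is at 252 and 247 CPM in fibroblasts and at 120.4 and 375 CPM in lymphatic cells, and the small endothelial subsets and mural cells carry wide intervals.

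**Figure D4:**
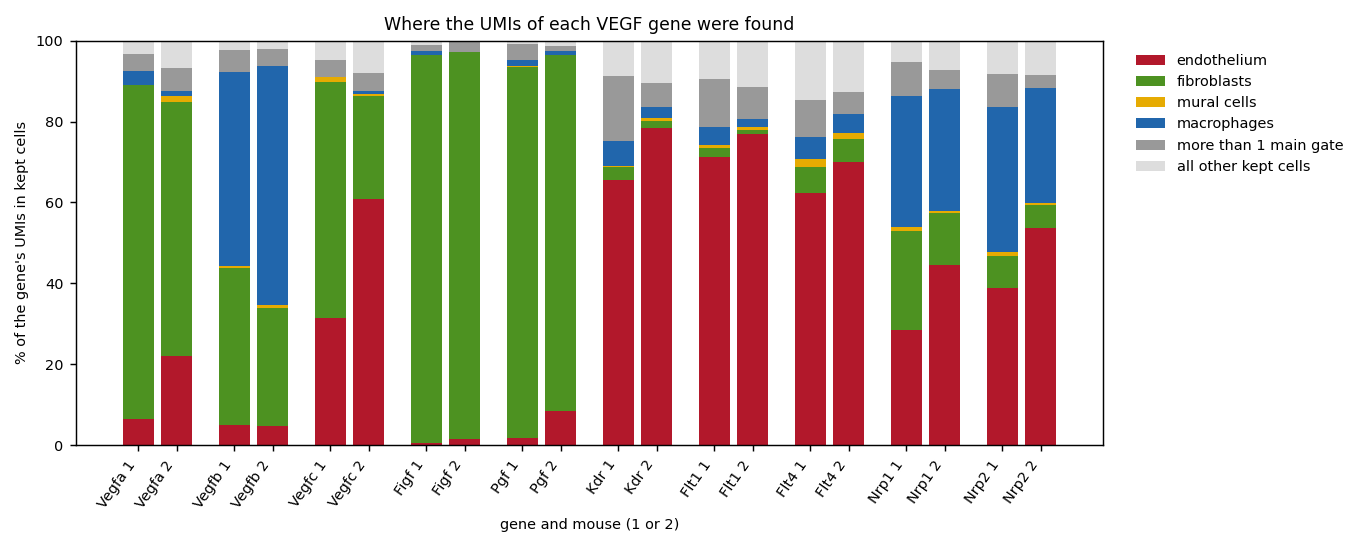
Share of the UMIs of each VEGF gene in kept cells (y axis, %) that came from each cell class, as stacked bars for mouse 1 and mouse 2 (x axis). Fibroblasts (green) fill 88.0% to 95.9% of the Figf and Pgf bars, endothelium (red) holds 62.4% to 78.3% of Kdr, Flt1 and Flt4, and Vegfb and the neuropilins are split between classes.

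In mural cells the VEGF receptor counts were small, and 39 of 63 cells in mouse 1 and 25 of 42 in mouse 2 also held a UMI of an endothelial check marker. Flt1 had 211 and 250.7 CPM in mural cells (19 and 14 UMIs), and Kdr had 44.3 and 161 CPM (4 and 9 UMIs). Of these, 18 of 19 and 11 of 14 Flt1 UMIs lay in mural cells with an endothelial marker UMI. So did 2 of the 4 Kdr UMIs of mouse 1 and all 9 of mouse 2, 8 of them in 1 cell. Cells with a marker held more of the class, at 61410 and 36654 UMIs, against 28809 and 19184 without one. Flt1 was at 34.7 and 156 CPM without a marker, against 293 and 300.1 CPM with one. For Kdr these values were 69.4 and 0 CPM, against 32.6 and 246 CPM. Nrp1 had 17 of 57 and 9 of 29 UMIs in the mural cells without such a marker, at 590.1 and 469 CPM there, against 651 and 546 CPM in those with one. Flt4 had 1 of 2 and 0 of 2 UMIs in the cells without a marker, and Nrp2 had 2 of 10 and 1 of 5. Over fibroblasts, 6 of 10 genes were called in mural cells (11.1% of all genes), 4 higher (Kdr, Flt1, Flt4 and Nrp2) and 2 lower (Figf and Pgf). Figf was tested only through its fibroblast sums, so its call is a description and nothing is read from that count. Over macrophages, 4 of 10 were called (22.5% of all genes), namely Kdr, Flt1, Flt4 and Vegfc, all higher, the last with 3 mural and 2 macrophage UMIs and a count ratio of 162 (95% interval 18.6 to 1945). With the mural cells that carried an endothelial marker UMI left out, an alternative added after the data were seen, these counts were 1 and 0. In that run 726 and 1645 of all 11515 genes were called. Pgf alone remained lower than in fibroblasts, by -3.35 (adjusted p = 7.1e-03). DESeq2 called 7 and 4 VEGF genes in the full mural class, where it called 1172 and 2461 of all 11651 genes. Scaling shifted the median of all genes to -0.40 for mural cells over fibroblasts and -0.41 over macrophages, against 0.39 for endothelium over mural cells, and the mural fold changes are relative to those shifts (-0.28, -0.34 and 0.30 with DESeq2 size factors). With marker-carrying mural cells left out, the median was -1.18 for mural cells over fibroblasts and -1.42 over macrophages. The -3.35 of Pgf is relative to that larger shift and rests on 2 and 0 Pgf UMIs in the mural cells that remained.

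Endothelium over mural cells gave 4 calls of 10 (11.7% of all genes), all higher in endothelium. Kdr was higher by 2.85 ± 0.33 (adjusted p = 1.8e-07), Flt1 by 2.41 ± 0.24 (adjusted p = 7.7e-09), Nrp2 by 2.01 ± 0.30 (adjusted p = 9.7e-06) and Nrp1 by 1.27 ± 0.20 (adjusted p = 2.5e-05). When cells in more than 1 main gate were kept in each class, only Nrp2 was still called, with 350 of all 11960 genes. The part of endothelial RNA or of mixed droplets in the mural values was not tested beyond the split by marker.

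Within endothelium, cells with at least 2 UMIs of Npr3 and Cytl1 were taken as endocardial, with at least 2 of Gja5, Gja4 and Sema3g as arterial, and with at least 3 of Ccl21a, Mmrn1 and Prox1 as lymphatic. These subsets were small, at 38 and 40 endocardial, 14 and 20 arterial, and 10 and 29 lymphatic cells, beside 865 and 1180 other endothelial cells. Endocardial check markers summed to 3194 and 2782 CPM in endocardial cells, against 125 and 100.5 CPM in other endothelium, with Fst at 0 in both. Arterial markers summed to 3415 and 2536 CPM in arterial cells, against 415 and 498 CPM, and lymphatic markers to 4877 and 4737 CPM in lymphatic cells, against 183 and 229 CPM. The 5 receptors passed the filter on low counts in this fit and the 5 ligands did not.

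Lymphatic cells carried a different receptor set. Flt4 had 662 and 483 CPM in lymphatic cells (11 and 27 UMIs), against 36.5 and 30.3 CPM in other endothelium, a log2 difference of 4.05 ± 0.47 (adjusted p = 1.9e-06). Flt4 passed the filter of this fit (164 CPM in 2 sums) only through the lymphatic sums, so it was tested because it was high there, and its call is a description. Flt1 fell to 1 UMI in each mouse (60.2 and 17.9 CPM) against 1054 and 757 CPM in other endothelium, a log2 change of -4.92 ± 0.59 (adjusted p = 2.6e-06) and, in counts over both mice, 32.2-fold lower with a 95% interval of 8.92 to 266. Nrp1 had 2 and 1 UMIs (120.4 and 17.9 CPM) against 1021 and 1154 CPM, a change of -4.68 ± 0.50 (adjusted p = 4.8e-07) and 26.5-fold lower in counts, with an interval of 9.05 to 128. These 3 of 5 tested receptors were called (16.5% of all genes tested), a count from which nothing is read since Flt4 is among them. Kdr, at 241 and 411 CPM, and Nrp2, at 241 and 501 CPM, were not called in lymphatic cells. Among the ligands, Pgf had 2 and 21 UMIs in lymphatic cells (120.4 and 375 CPM), against 16.9 and 31.3 CPM in other endothelium, a count ratio of 12.7 (95% interval 7.64 to 20.4) that rests mostly on mouse 2 and was not tested across mice. Cardiomyocyte markers summed to 3372 CPM in the 10 lymphatic cells of mouse 1 and 429 CPM in the 29 of mouse 2, against 1169 and 427 CPM in other endothelium. Macrophage markers summed to 301 and 107 CPM in lymphatic cells (2 and 3 of 5 detected), against 56.2 and 60.5 CPM (all 5), and arterial markers to 963 and 858 CPM, against 415 and 498 CPM. The part of these markers in the lymphatic values was not tested.

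Endocardial cells had 151 and 105 CPM of Kdr (10 and 8 UMIs), against 484 and 541 CPM in other endothelium. Kdr was lower by -2.02 ± 0.31 (adjusted p = 3.9e-05) and was the 1 of 5 receptors called (17.9% of all genes tested). Fibroblast check markers summed to 515 and 276 CPM in endocardial cells (3 and 2 of 5 detected), against 34.5 and 43.2 CPM in other endothelium (all 5 detected), and lymphatic markers to 802 and 472 CPM, against 183 and 229 CPM; their part in the Kdr difference was not tested. Flt1 had 484 and 709 CPM in endocardial cells, against 1054 and 757 CPM, a change of -0.57 ± 0.23 that did not pass (adjusted p = 0.081). Nrp1, at -0.58 ± 0.21 (adjusted p = 0.052), and Nrp2, at -0.81 ± 0.32 (adjusted p = 0.081), also missed the threshold. No Vegfc UMI was seen in endocardial cells, which with 3 counts over both mice is at least 3.02-fold lower than the 212 UMIs of other endothelium.

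In arterial cells Nrp2 had 1 UMI in each mouse (48.1 and 28.5 CPM), against 321 and 318 CPM in other endothelium. It was the 1 of 5 receptors called (2.79% of all genes tested), at -3.20 ± 0.72 (adjusted p = 0.016). In counts this was 8.92-fold lower with an interval of 2.46 to 73.8, and the call was lost with DESeq2 (adjusted p = 0.13), without the mouse block (adjusted p = 0.063) and with cells of more than 1 gate kept (adjusted p = 0.18). Flt1, at 1347 and 997 CPM in arterial cells, and Nrp1, at 770 and 969 CPM, were not called. Vegfc had 3 and 12 UMIs in arterial cells (144 and 342 CPM), against 33.1 and 88.05 CPM in other endothelium, a count ratio of 4.22 (95% interval 2.32 to 7.11). This ratio was not tested across mice because Vegfc did not pass the filter.

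Over the subsets and classes, Kdr ran from other endothelium (513 ± 40.6 CPM, SD, n = 2 mice) through lymphatic (326 ± 120.4) and arterial (287 ± 2.58) cells to endocardial (128 ± 32.8) and mural cells (103 ± 82.6). The lymphatic and arterial values overlapped, as did the endocardial and mural ones and those of fibroblasts and macrophages. Flt1 ran from arterial (1172 ± 247) and other endothelium (905 ± 210.3), which overlapped, to endocardial (597 ± 159), mural (231 ± 28.4) and lymphatic cells (39.0 ± 29.9), with macrophages and fibroblasts last and overlapping. Nrp1 was highest in other endothelium (1087 ± 93.9), then arterial (869 ± 141) and endocardial cells (738 ± 134), which overlapped, then mural cells, fibroblasts and macrophages, and lowest in lymphatic cells (69.2 ± 72.5). Nrp2 was highest in lymphatic cells (371 ± 184) and other endothelium (319.5 ± 2.66), which overlapped, with arterial cells (38.3 ± 13.9) between macrophages and fibroblasts.

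The other endothelium was split further by gates chosen for this description, at least 2 UMIs of Hey1 and Btnl9 (117 and 106 cells) or of Apln and Aplnr (43 and 147 cells), beside 701 and 921 remaining cells. Pgf had 75.0 and 94.4 CPM in Apln-Aplnr cells (8 and 30 UMIs), against 11.3 and 18.5 CPM in the remaining endothelium (13 and 25 UMIs). Each mouse showed the difference, and the log2 difference was 2.44 ± 0.43 (adjusted p = 3.0e-03). Pgf was the 1 of 6 tested VEGF genes called (0.206% of all genes), but it passed the filter (38.0 CPM in 2 sums) only through the Apln-Aplnr sums, so nothing is read from that count. The call was lost with DESeq2 (adjusted p = 0.24) and without the mouse block (adjusted p = 0.22), while the change stayed at 2.51 and 2.50. Fibroblast check markers summed to 9.37 and 40.9 CPM in Apln-Aplnr cells, against 36.6 and 40.7 CPM in the remaining endothelium, and median depth was 2018 and 1865 UMIs, against 1409 and 1338. Nrp2, at 562 and 466 CPM in Apln-Aplnr cells against 303 and 299.9 CPM, differed by 0.72 ± 0.15 (adjusted p = 0.016), below the fold required, and the adjusted p was 0.93 without the block. Hey1-Btnl9 cells gave 0 calls of 6 (1.24% of all genes), with 1 gene at an unadjusted p below 0.05 in edgeR and 0 calls in DESeq2. There Kdr had 569 and 647 CPM, against 469 and 524 CPM, a difference of 0.28 ± 0.14 (adjusted p = 0.47).

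Within fibroblasts, cells with at least 2 UMIs of Ptn and Adam33 (43 and 42 cells) had 244 and 134 CPM of Figf (29 and 13 UMIs), against 38.5 and 44.6 CPM in other fibroblasts. Figf was higher by 2.12 ± 0.31 (adjusted p = 2.8e-09). Pgf went the other way, at 59.0 and 93.0 CPM in Ptn-Adam33 cells (7 and 9 UMIs), against 208 and 209 CPM, lower by -1.60 ± 0.30 (adjusted p = 4.2e-05). These 2 of 9 tested VEGF genes were called where 0.477% of all genes were, and no overlap was seen between the mice of either side. The gate was chosen with earlier results of these data known, so nothing is read from that count and the 2 calls are descriptions. Both calls were lost without the mouse block (adjusted p = 0.24 and 0.22), with log2 changes of 2.11 and -1.59. Fibroblast check markers summed to 4147 and 4742 CPM in Ptn-Adam33 cells, against 3514 and 4137 CPM in other fibroblasts, and mesothelial markers to 92.7 and 289 CPM, against 93.9 and 50.3 CPM. The part of the mesothelial markers in the Figf and Pgf differences was not tested.

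Fibroblasts with at least 2 UMIs of Pi16 (1027 and 533 cells), a gene of adventitial fibroblasts, gave 0 calls of 9 (2.11% of all genes), since no change reached the required fold. Pgf was nonetheless higher in both mice, at 291 and 299 CPM against 208 and 209 CPM in other fibroblasts (0.50 ± 0.09, adjusted p = 4.8e-07), and Nrp1 was lower, at 223 and 156 CPM against 319.7 and 226 CPM (-0.52 ± 0.09, adjusted p = 1.5e-07). Figf was lower at 21.1 and 31.7 CPM, against 38.5 and 44.6 CPM (-0.72 ± 0.19, adjusted p = 3.4e-03). These adjusted p-values were lost with DESeq2 (0.26, 0.15 and 1.0 for Pgf, Nrp1 and Figf) and without the mouse block (0.66, 1.0 and 0.99), with log2 differences of 0.50, -0.52 and -0.68 or -0.69. In all, 5 genes had an unadjusted p below 0.05 in edgeR, and DESeq2 called 0. The Vegfa difference was 0.90 ± 0.33 (adjusted p = 0.075), at 18.6 and 17.4 CPM in Pi16 cells against 7.91 and 11.9 CPM. Median depth was 3011 and 2880 UMIs in Pi16 cells, against 2411 and 2265 in other fibroblasts. Its part in these differences was not tested.

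Within macrophages, cells with at least 2 UMIs of Lyve1 and Timd4, genes of resident macrophages, numbered 1819 and 975, and cells with at least 2 of Ccr2, a receptor of monocyte-derived macrophages, numbered 132 and 112. Lyve1-Timd4 cells gave 0 calls of 6 (2.74% of all genes), with 2 genes at an unadjusted p below 0.05 in edgeR and 0 calls in DESeq2. Those 2 were the neuropilins. Nrp1 had 238 and 281 CPM in Lyve1-Timd4 cells, against 129 and 193 CPM in other macrophages, a difference of 0.68 ± 0.09 (adjusted p = 1.5e-05) that is below the fold required. Nrp2 had 56.2 and 63.1 CPM, against 39.3 and 42.4 CPM (0.51 ± 0.13, adjusted p = 0.011). Without the mouse block the adjusted p was 0.50 for Nrp1 and 0.51 for Nrp2, and with DESeq2 it was 6.3e-03 and 0.70. Ccr2 cells also gave 0 calls of 6 (2.70% of all genes), with 2 genes at an unadjusted p below 0.05 and 0 calls in DESeq2. Nrp1 had 76.6 and 135 CPM in Ccr2 cells, against 129 and 193 CPM in other macrophages (-0.59 ± 0.17, adjusted p = 0.035, or 0.26 with DESeq2 and 0.50 without the block). Median depth was 3700.5 and 3359 UMIs in Ccr2 cells and 3028 and 2944 in Lyve1-Timd4 cells, against 2407 and 2364 in other macrophages. The part of depth in the neuropilin differences was not tested.

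**Figure D5:**
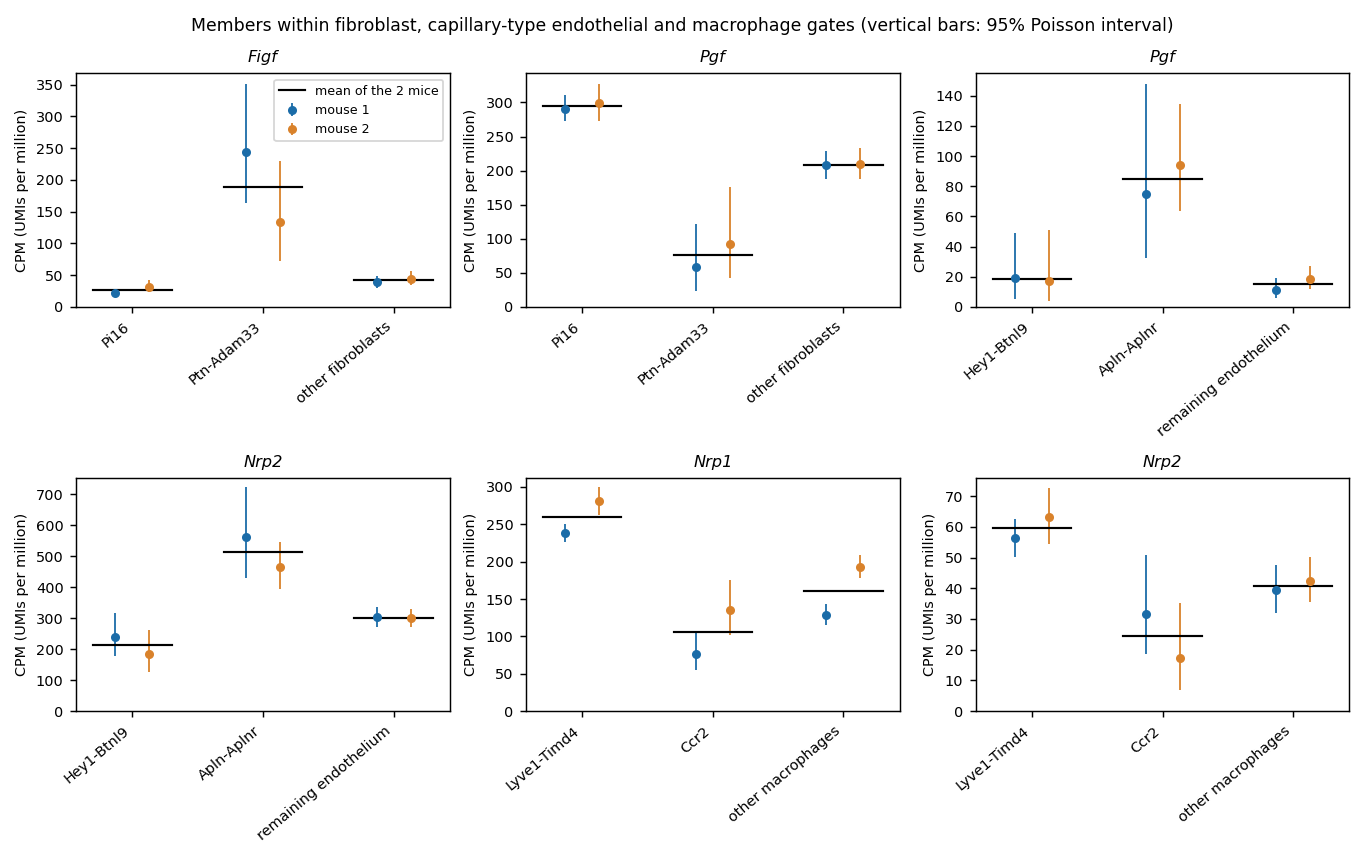
Levels (y axis, CPM of summed UMIs, linear, each panel on its own scale) of Figf and Pgf in fibroblast gates, of Pgf and Nrp2 in gates of the other endothelium, and of Nrp1 and Nrp2 in macrophage gates (x axis); points are mice with 95% Poisson intervals and black lines are means of the 2 mice. Figf is highest and Pgf lowest in Ptn-Adam33 fibroblasts, and Pgf is highest in Apln-Aplnr endothelium, in both mice.

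Other genes of VEGF signalling were followed as 4 lists. All were chosen with results of these data known, and their counts are read beside the share of all genes called, 30.7% between endothelium and fibroblasts, 33.2% between endothelium and macrophages and 37.7% between fibroblasts and macrophages. Of 24 co-receptors and modulators, 21 were tested. Between endothelium and fibroblasts 11 were higher and 5 lower, with a median log2 fold change of 1.49 against -0.03 over all genes. Ecscr, an endothelial surface protein that modulates VEGF receptor signalling, had 483 ± 37.0 CPM in endothelium and 4.64 ± 0.13 CPM in fibroblasts (SD, n = 2). Ptprb, the vascular phosphatase VE-PTP, had 409 ± 21.3 CPM in endothelium and 2.78 ± 2.06 CPM in fibroblasts. Lower in endothelium were Thbs1, an inhibitor of vessel growth, by -4.12 ± 0.24, and the semaphorin Sema3c, a neuropilin ligand, by -5.77 ± 0.45. The level of Thbs1 differed widely between mice, at 7.41 ± 5.57 CPM in endothelium and 124 ± 92.0 CPM in fibroblasts. Against macrophages 13 were higher in endothelium and 2 lower (median 4.70 against -0.02), the lower ones being the phosphatase Ptprj (-3.88 ± 0.26) and the neuropilin adaptor Gipc1 (-1.22 ± 0.20). Between fibroblasts and macrophages 9 were higher and 3 lower (median 0.28 against 0.02), with the matrix proteoglycan Hspg2 (4.50 ± 0.18) and Thbs1 (4.49 ± 0.20) higher in fibroblasts and Ptprj (-2.13 ± 0.18) and the neuropilin partner Plxna4 (-2.42 ± 0.35) lower.

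Of 34 genes of receptor signalling, 33 were tested. Between endothelium and fibroblasts 10 were higher and 4 lower (median 0.71). The small heat shock protein Hspb1 (1.73 ± 0.14) and the adaptor Nck1 (1.72 ± 0.15) were higher, and the kinases Prkca (-3.97 ± 0.34) and Akt2 (-2.11 ± 0.24) were lower. The level of Hspb1 differed widely between mice, at 3324 ± 1774 CPM in endothelium, 1020 ± 690 CPM in fibroblasts and 136 ± 105 CPM in macrophages. Against macrophages 10 were higher in endothelium and 7 lower (median -0.10), with Hspb1 (4.33 ± 0.16) and Nck1 (1.95 ± 0.15) higher and Mapk14 (-1.97 ± 0.19) and its target kinase Mapkapk2 (-1.90 ± 0.19) lower. Between fibroblasts and macrophages 8 were higher and 10 lower (median -0.45), with Hspb1 (2.60 ± 0.14) and the kinase Fyn (1.31 ± 0.17) higher and the small GTPases Cdc42 (-1.16 ± 0.13) and Rac1 (-1.15 ± 0.13) lower in fibroblasts.

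Of 15 genes known to respond to VEGF, 2 were gate genes and 10 of the rest were tested. Between endothelium and fibroblasts 6 were higher and 1 lower (median 1.38). Apold1, an endothelial early-response gene, had 176 ± 29.8 CPM in endothelium and 1.61 ± 0.13 CPM in fibroblasts, and the adhesion molecule Icam1 had 299.7 ± 233 CPM against 99.1 ± 72.4 CPM, a wide spread between mice. The early-response gene Nr4a1 was lower in endothelium by -2.17 ± 0.20, at 31.8 ± 4.81 CPM against 137 ± 10.6 CPM. Against macrophages 5 were higher in endothelium and 0 lower (median 1.44), among them Icam1 (2.76 ± 0.25) and Vcam1 (2.16 ± 0.17). Between fibroblasts and macrophages 4 were higher and 2 lower (median 0.77), with Egr1 (1.08 ± 0.16) and Vcam1 (2.13 ± 0.17) higher and Hlx (-1.80 ± 0.21) and Rcan1 (-1.23 ± 0.25) lower in fibroblasts.

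Of 26 regulators of VEGF ligand and receptor transcription, 24 were tested. Between endothelium and fibroblasts 17 were higher and 0 lower (median 1.91). Sox18, a factor of vascular development, had 677 ± 14.5 CPM in endothelium and 1.61 ± 0.13 CPM in fibroblasts, and the flow-responsive factor Klf2 had 2838 ± 328 CPM against 847 ± 137 CPM. Against macrophages 17 were higher in endothelium and 0 lower (median 1.90), among them Klf2 (1.12 ± 0.12) and Klf4 (1.25 ± 0.16). Between fibroblasts and macrophages 8 were higher and 7 lower (median -0.14), with Foxo1 (1.89 ± 0.16) and the hypoxia factor Epas1 (2.49 ± 0.21) higher and Mef2c (-2.94 ± 0.17) and Fli1 (-3.47 ± 0.17) lower in fibroblasts. Counts of higher and lower genes in endothelium over mural cells (11.7% of all genes called) were 8 and 0 for the co-receptors, 8 and 3 for signalling, 4 and 0 for the responsive genes and 11 and 1 for the regulators. In mural cells over fibroblasts (11.1% of all genes called) they were 6 and 3, 3 and 1, 3 and 3, and 8 and 3 in the same order, so the signalling genes were called about as often as all genes. In mural cells over macrophages (22.5% of all genes called) they were 9 and 1, 6 and 10, 2 and 1, and 8 and 4.

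The genes whose level followed each VEGF gene most closely were ranked by Pearson's r of log2(CPM + 1) over 14 sums (7 classes in 2 mice) among 5921 genes. The sums of a mouse share a library, so r is only a description. Kdr was closest to Ushbp1 (r = 0.98), the endothelial receptor Tie1 (0.97) and Sox18 (0.96), and Flt1 to Id1 (0.97), the fatty acid-binding protein Fabp4 (0.97) and Tspan7 (0.94). Flt4 was closest to Chmp5 (0.92), Pcp4l1 (0.90) and Ypel2 (0.88). Nrp1 was closest to Sh3bp4 (0.90), Bcam (0.90) and Adgrl2 (0.90), and Nrp2 to Pde2a (0.92), the water channel Aqp1 (0.87) and Nts (0.86). Among the ligands, Vegfc was closest to Arhgef28 (0.98), Enah (0.97) and Snai2 (0.97), and Pgf to B3gnt9 (0.89), Pcsk6 (0.88) and 2900093K20Rik (0.88). Vegfa, Vegfb and Figf did not reach the 50 CPM required in any of these classes.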

How the data were processed

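The values deposited by the authors are raw counts of UMIs by gene symbol and barcode, not normalized. FastQC and Cell Ranger 2.2.0 with build mm10 are named per the submitters' processing notes, and the rule by which barcodes were chosen is not given in the sources used here. Barcodes under 500 UMIs or 300 genes, or above 10% mitochondrial UMIs, were dropped (719 and 432), and Scrublet (scanpy 1.11.5) run per mouse removed 405 and 248 more as doublets. The 2 mice are separate animals of 1 group. The mouse block removes a difference in level shared by all classes of a mouse. The p-values of the main fits rest on how far class differences varied between the 2 mice beyond that, moderated across genes.

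Class sums of UMIs in each mouse went into edgeR 4.0.16 under R 4.3.3 (quasi-likelihood F tests, TMM scaling, low genes removed by filterByExpr, mouse as a replicate block) in 5 fits: the 4 classes (11651 genes, 3 residual degrees of freedom), endothelial subsets (1506 genes), gates of the other endothelium (4361), fibroblast gates (9852) and macrophage gates (9938). Mouse was a block since each animal gave all classes. The code was tested on simulated data. DESeq2 1.42.0 was an alternative, beside other scaling, filters, gates and cells, and each mouse left out. CPM is per 1000000 UMIs of the class. Intervals of shares and count ratios are exact, at 95%, and bounds for groups without a UMI assume 3 counts. SEs were derived from the F statistic.

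The members, lists, gates and tests were chosen with earlier results of these data known. Named genes are all 10 members, the 2 called genes with the highest CPM per list and direction (printed for the 3 large classes), and the 3 most similar genes by r for each member reaching 50 CPM. Upstream sequences are from RefSeq, GRCm38.p6, in which all 10 genes were matched.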

Additional observations from a re-analysis of the deposited data

How the results depend on the processing

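Of 91 fold changes of VEGF genes followed, 46 were called. A fold change was followed if it was called or had a minimum of UMIs in both classes compared, so all calls entered by this rule. Of the 46, 29 kept their direction under every alternative run for them, and their call under each one that could test it. The 46 include calls given above as descriptions, so nothing is read from these counts. Of the calls that involve mural cells, Nrp2 in endothelium over mural cells and Pgf in mural cells over fibroblasts were among the 29. Counts of VEGF genes called stayed within 1.5 times of the values reported except as follows. Brackets give all genes called out of those tested in the same run. With cells in more than 1 main gate kept in each class, endothelium over mural cells gave 1 (350 of 11960). In that run endocardial over other endothelium gave 2 (370 of 2138) and arterial over other endothelium 0 (45 of 2138). Lyve1-Timd4 over other macrophages gave 1 (263 of 10088). Another alternative, chosen after seeing the data, left out mural cells that carried an endothelial marker UMI. There mural cells over fibroblasts gave 1 (726 of 11515) and over macrophages 0 (1645 of 11515), and fewer mural cells entered that fit. With no filter on low counts, where all 10 VEGF genes were tested, the endocardial comparison gave 3 (467 of 14659) and the lymphatic one 5 (398 of 14659). With gates doubled the endocardial and arterial comparisons gave 2 each (377 and 38 of 2158). They also did so with cells over 0.5% cardiomyocyte UMIs left out (284 and 51 of 1583). DESeq2 gave 0 for the arterial (27 of 1506) and the Apln-Aplnr comparison (1 of 4361). The fit with no replicate block gave 0 for these 2 comparisons (16 of 1506 and 0 of 4361). It also gave 0 for Ptn-Adam33 over other fibroblasts (1 of 9852). The cause of these changes was not tested.

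Uncalled differences that turned sign were Flt1 in fibroblasts over macrophages (0.083, cells of several gates kept), Nrp2 in mural cells over macrophages (-0.18 with gates doubled, -0.92 with marker-carrying mural cells left out), Flt1 in arterial (-0.17), Nrp2 in lymphatic (-0.085), Nrp1 in Hey1-Btnl9 (-0.0051) and Kdr in Apln-Aplnr cells (-0.081) with no filter, the last also with gates doubled (-0.055). Flt1 in Lyve1-Timd4 over other macrophages gave -0.056 with doublets kept, -0.30 with cells of several gates kept and -0.23 with gates doubled. In the fit that gave -0.92 for Nrp2, the median over all genes was -1.42. In CPM, Nrp2 stood at 69.4 and 52.1 (2 and 1 UMIs) in the mural cells that remained, against 49.8 and 50.3 in macrophages. The lymphatic comparison could not be fitted with gates doubled, with mitochondrial shares of at most 5% or with cardiomyocyte-marked cells left out, since a mouse then had under 10 such cells. With either mouse left out there is 1 library, so fold changes were values with no test and counts of calls could not be had. The small subsets limit the depth: 1 UMI is 48.1 and 28.5 CPM in arterial cells, so differences of a few UMIs there were not detectable.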

Other observations

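Cells outside the 4 classes also carried receptor UMIs. Cells in none of the classes of this report, 5.84% and 8.28% of kept cells in mouse 1 and mouse 2, held 8.48% and 10.51% of all Kdr UMIs, 9.24% and 11.3% of all Flt1 UMIs and 14.7% and 11.8% of all Flt4 UMIs, and 4.21% and 6.93% of the UMIs of all genes. They held 1.03% and 0% of the Figf UMIs and 0.69% and 1.29% of the Pgf UMIs. Cells in more than 1 main gate, which were left out of the class sums, held 16.2% and 5.86% of the Kdr UMIs and 11.9% and 7.90% of the Flt1 UMIs, against 4.33% and 2.82% of the UMIs of all genes. T cells held 0 Kdr UMIs in both mice, among 207270 and 190948 UMIs in all, and 1 and 2 Flt1 UMIs, so a level of up to 14.5 and 15.7 CPM of Kdr is allowed by 3 counts.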
